A study of Homo sapiens with 10 samples.

Results

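Kidney tubule injury markers are genes whose RNA or protein rises when tubule cells are damaged, and 8 of them were followed here in irradiated renal proximal tubular epithelial cells (RPTECs). The members were HAVCR1, LCN2, CLU, SPP1, DCDC2, CD24, PROM1 and ANXA1, chosen by gene symbol through the Ensembl identifiers of the count table. They are 8 of 61587 listed genes, and all 8 were among the 19006 genes tested, which were those counted 200 times or more in all samples together. RPTEC/TERT1 is a human proximal tubular line immortalised with telomerase, so the model is a single line without the other cells of a kidney. Bulk RNA-seq was performed on 5 samples given 10 Gy of gamma irradiation and on 5 control samples that were mock irradiated, both collected after 7 days. No other treatment separated the groups, and all samples grew in the same hormone-supplemented medium with epidermal growth factor and geneticin. The labels number the replicates 1 to 5 in each group. The cell line field of the labels counts upward from sample to sample, whereas the series description names RPTEC/TERT1 for all of them. The sources used here do not say whether replicates were separate cultures. P-values of the main test measure the spread of the differences between samples of equal replicate number, which may be technical.

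The injured tubule loses its brush border and transporters and takes on genes of repair. HAVCR1 encodes kidney injury molecule-1 (KIM-1), a surface receptor through which tubule cells take up dying neighbours. LCN2 encodes neutrophil gelatinase-associated lipocalin (NGAL), a secreted carrier of iron-binding siderophores, CLU the secreted chaperone clusterin, and SPP1 the secreted integrin ligand osteopontin. DCDC2 encodes a doublecortin protein of microtubules and cilia, PROM1 (CD133) and CD24 are surface proteins used to pick out scattered progenitor-like tubule cells, and ANXA1 is a phospholipid-binding protein known for damping inflammation. The study names PROM1, DCDC2 and SPP1 among genes shared by injured nephron segments and HAVCR1 as a marker of injured proximal tubule cells. The question asked of the present samples is which of these genes moved after irradiation of a tubule line, and by how much.

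Expression is given as CPM, the counts of a gene per 1e6 counts of its library, on the scale of the TMM method, which corrects each library for the makeup of its RNA. Counts on genes summed to between 78.1 and 131.6 M, with M for 1e6, in control samples (median 104.4) and between 66.3 and 101.6 M in irradiated samples (median 94.1). All 5 epithelial markers were high, the keratin KRT8 at a mean of 1010 (control) and 1088 (irradiated) CPM. The keratin KRT19 rose from 672.7 to 1104 CPM (log2 fold change 0.69, edgeR adjusted p = 0.00671, and 0.39 with replicates 1 and 3 left out), and the cadherin CDH1 had a log2 fold change of -0.18 (adjusted p = 0.0346) that did not pass without replicate 1, 2, 3 or 5 (0.0854, 0.103, 0.0776 and 0.124) or without the block (0.233), while EPCAM, KRT8 and KRT18 did not pass. Of 15 markers of the proximal tubule, 9 averaged 1 CPM or more, the most abundant being the renal transcription factor PAX8 at 533.0 and 594.4 CPM. The proximal genes HNF4A (12 counts over all samples), SLC34A1 (86 counts), SLC22A6 (1 count) and LRP2 (17 counts) were close to absent. Other members of that list were expressed and did not pass. ANPEP stood at 247.8 ± 76.1 CPM in controls and at 295.8 ± 96.2 CPM in irradiated samples (SD, n = 5 each). In the same order, MME stood at 22.8 ± 24.4 and 15.7 ± 10.5 CPM, and CUBN at 4.37 ± 0.971 and 4.76 ± 0.589 CPM. SLC12A1, a transporter of the loop of Henle, stood at 178.3 ± 125.2 CPM in controls and at 60.9 ± 62.4 CPM in irradiated samples (SD, n = 5 each), while UMOD of the same segment had 0 counts. SLC12A1 fell by 1.80 on the log2 scale (edgeR adjusted p = 1.21e-04, and 0.0594 without the replicate block). CDH16, a cadherin of the kidney, fell by 0.78 (adjusted p = 1.43e-04), and AQP1, a water channel of the proximal tubule, fell by 0.61 (adjusted p = 0.00635) at a level of 1.82 CPM in controls. These were the 2 of 10 tested proximal markers that passed, both as lower, where 22.7% of all genes tested fell. PAX8 and CDH16 are expressed along most of the nephron, so they mark renal epithelium and not the proximal segment in particular. In bulk samples, fewer cells expressing a gene and less RNA of it per cell cannot be told apart.

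Markers of other cell types were low, but several were higher in irradiated samples. The 4 endothelial markers summed to 1.29 to 2.40 CPM in controls and 4.15 to 6.07 CPM in irradiated samples. CDH5, the cadherin of endothelial junctions and the most abundant of them after irradiation, rose from 0.596 to 3.31 CPM (log2 fold change 2.48, edgeR adjusted p = 2.55e-04), and PECAM1 rose from 0.860 to 1.40 CPM (0.72, adjusted p = 0.00519). VWF did not pass (0.411 and 0.397 CPM), and KDR had 2 counts over all samples. The 6 fibroblast and mural markers summed to 19.9 to 27.2 CPM in controls and 33.8 to 45.8 CPM in irradiated samples, mostly as the collagen COL1A1 (18.8 and 32.2 CPM). All 3 tested members of that list rose, beside 23.9% of all genes tested. COL1A1 rose by 0.78, the proteoglycan DCN by 2.36 and the smooth muscle actin ACTA2 by 0.41 on the log2 scale (edgeR adjusted p = 1.08e-04, 2.01e-04 and 0.0212). DCN went from 0.315 ± 0.195 to 1.75 ± 1.59 CPM (SD, n = 5 each). ACTA2 did not pass without replicate 4 or 5 (0.0544 and 0.0579) or without the block (0.0692). COL3A1, PDGFRA and PDGFRB were under 200 counts. The 5 leukocyte markers summed to 0.487 to 0.734 CPM in controls and 0.784 to 1.24 CPM in irradiated samples. CD14, the most abundant after irradiation, rose from 0.268 to 0.570 CPM (log2 fold change 1.09, edgeR adjusted p = 4.79e-04), PTPRC did not pass (0.295 and 0.353 CPM), and CD68, CD3E and MS4A1 were under 200 counts. The part of these 3 lists in the results was not tested.

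The 8 markers did not move together. HAVCR1, ANXA1 and SPP1 were higher in irradiated than in control RPTECs, CD24 and PROM1 were lower, and LCN2, CLU and DCDC2 did not pass the test. The test was edgeR's quasi-likelihood test over all 19006 genes with replicate number as a block, and a gene passed at a Benjamini-Hochberg adjusted p-value under 0.05. By this rule 5 of 8 markers were called, where 46.6% of all genes tested were called, and 52.4% of those averaging at least 1 on the log2 CPM scale. The 3 that rose are 37.5% of the markers against a background of 23.9%, and the 2 that fell are 25% against 22.7%. HAVCR1 alone changed by more than 2-fold, where 5.26% of genes rose and 4.06% fell by that much. The groups did not overlap for 4 of 8 markers, against 26.7% of all genes tested. The median log2 fold change of the markers was 0.18, and that of all genes tested was -0.01.

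**Figure D1:**
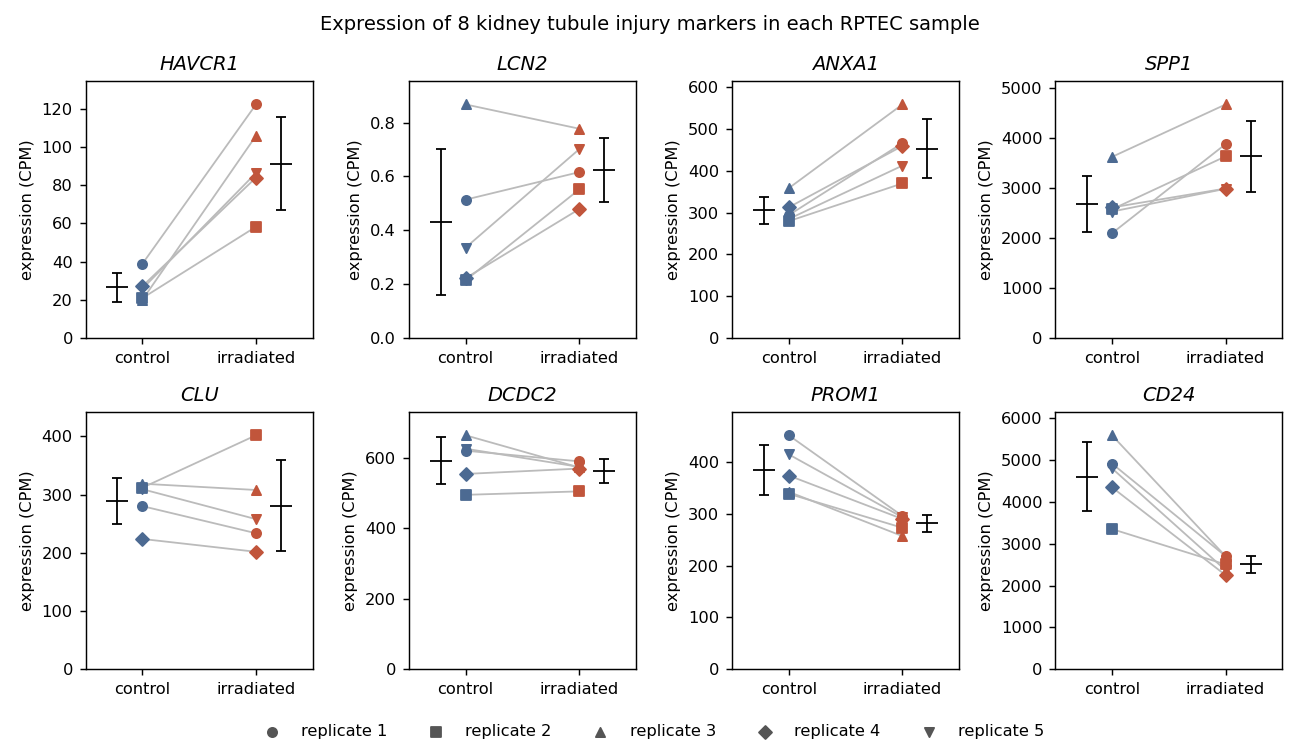
Expression in CPM (vertical axes, linear from 0) of each marker in 5 control (blue) and 5 irradiated (red) samples, with grey lines joining samples of the same replicate number and black bars giving mean ± SD. HAVCR1 and ANXA1 lie wholly higher and PROM1 and CD24 wholly lower in irradiated samples, whereas the groups overlap for LCN2, SPP1, CLU and DCDC2.

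HAVCR1 rose most. The gene lies on chromosome 5 of GRCh38 (chr5:157026742-157069396, minus strand). Its expression was 38.9, 21.0, 20.1, 27.2 and 25.9 CPM in control replicates 1 to 5. In irradiated replicates 1 to 5 it was 122.2, 58.3, 105.8, 84.0 and 86.4 CPM. The lowest irradiated sample, replicate 2, was above the highest control, replicate 1, so the groups did not overlap. The mean went from 26.6 ± 7.49 to 91.3 ± 24.2 CPM (SD, n = 5 each). The log2 fold change was 1.78 (standard error 0.12, edgeR adjusted p = 4.93e-05), or 3.42-fold. By the size of its fitted rise it was number 392 of the genes tested. Within pairs the ratio of irradiated to control ran from 2.77 in replicate 2 to 5.25 in replicate 3, and leaving replicate 3 out gave a log2 fold change of 1.63.

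ANXA1 and SPP1 rose by less. ANXA1, on chromosome 9 (chr9:73151865-73170393, plus strand), stood at 293.8, 279.4, 358.0, 312.4 and 284.6 CPM in the controls and at 465.4, 369.4, 557.7, 458.7 and 411.8 CPM in the irradiated samples. All irradiated samples exceeded all controls. Its log2 fold change was 0.56 (standard error 0.05, edgeR adjusted p = 1.51e-04), and the pair differences lay between 0.40 and 0.66 on the log2 scale. SPP1 lies on chromosome 4 (chr4:87975667-87983532, plus strand) and was an abundant transcript before and after irradiation. Control replicates 1 to 5 held 2100, 2579, 3627, 2616 and 2534 CPM of SPP1, and irradiated replicates held 3884, 3638, 4676, 2995 and 2990 CPM. The groups overlapped because control replicate 3 was above irradiated replicates 4 and 5, yet the irradiated sample was higher in 5 of 5 pairs, as it was for 26.4% of genes. The log2 fold change was 0.44 (standard error 0.11, edgeR adjusted p = 0.0118), with 0.89 in pair 1 and 0.20 in pair 4. Without the replicate block SPP1 did not pass (log2 fold change 0.43, edgeR adjusted p = 0.0544). Replicate 3, which held the most SPP1 in each group, also had the highest share of counts on mitochondrial genes in each group, 10.7% and 12.2% where the lowest shares were 7.78% and 9.0%. In every pair this mitochondrial share was higher in the irradiated than in the control sample, as SPP1 was. The part of this in the SPP1 values was not tested.

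CD24 and PROM1 fell. CD24, a small glycoprotein anchored in the membrane, lies on chromosome 6 (chr6:106969831-106975627, minus strand). Its expression was 4917, 3351, 5593, 4349 and 4803 CPM in control replicates 1 to 5 and 2703, 2504, 2699, 2248 and 2367 CPM in irradiated replicates. The highest irradiated sample was below the lowest control, replicate 2, which was also the pair with the smallest drop. CD24 fell by 0.86 on the log2 scale (standard error 0.10, edgeR adjusted p = 4.28e-04), a control level 1.82-fold that of irradiated samples. It took up 0.47% of all counts in control and 0.244% in irradiated samples. CD24 has processed pseudogene copies, and reads that align equally well to several places are left out of STAR's gene counts, so its level can be too low. PROM1 lies on chromosome 4 (chr4:15963076-16084378, minus strand), with 451.7, 338.7, 342.5, 373.9 and 414.8 CPM in the controls. The irradiated samples held 295.8, 273.1, 257.0, 290.1 and 293.4 CPM of PROM1, all below every control. It fell by 0.44 on the log2 scale (standard error 0.05, edgeR adjusted p = 5.53e-04), and the drop within pairs ran from 0.31 to 0.61. Irradiated samples were closer to each other than controls for both genes, with coefficients of variation of 8.04% against 18% for CD24 and 5.86% against 12.6% for PROM1.

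**Figure D2:**
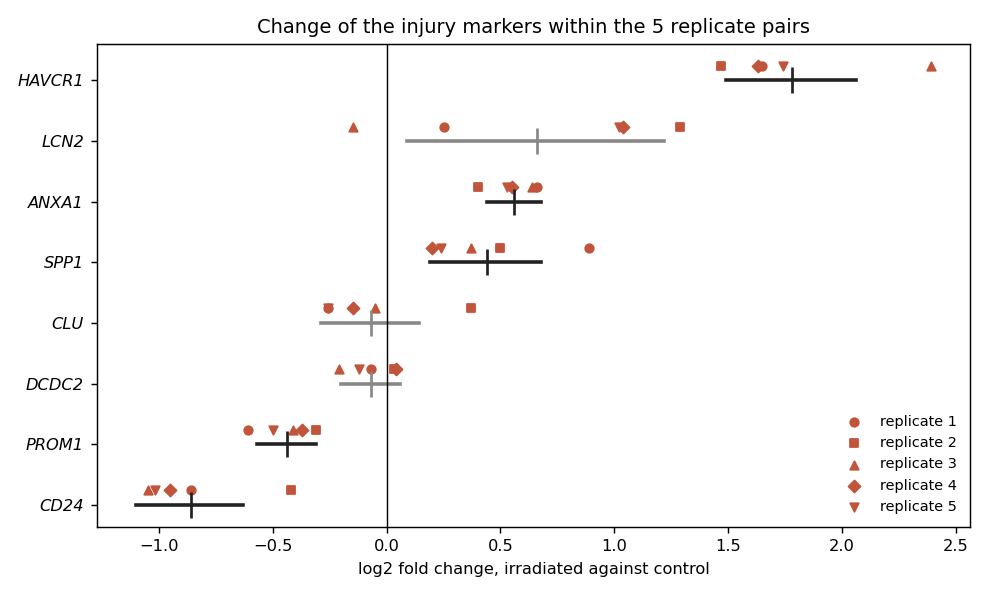
Log2 fold change of irradiated against control samples (horizontal axis) for each marker, as the fitted value (vertical tick) with its 95% interval (bar, black where the adjusted p-value was under 0.05 and grey otherwise) and the difference within each of the 5 pairs (red symbols). HAVCR1 is at 1.78 and CD24 at -0.86, and the pairs of LCN2 spread from -0.15 to 1.29.

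LCN2, on chromosome 9 (chr9:128149071-128153453, plus strand), was close to the limit of detection. It was read 42, 30, 87, 24 and 40 times in control replicates 1 to 5 and 61, 37, 72, 44 and 62 times in irradiated replicates. This corresponds to 0.514, 0.215, 0.867, 0.223 and 0.336 CPM in controls and 0.616, 0.552, 0.777, 0.479 and 0.701 CPM in irradiated samples. The irradiated sample was higher in 4 of 5 pairs, and in pair 3 the control was the highest sample of all. The fitted log2 fold change of 0.66 (standard error 0.24, 95% interval 0.09 to 1.22 before adjustment over genes) did not pass (edgeR adjusted p = 0.0585). It passed without replicate 3 (0.92, edgeR adjusted p = 0.0119), without replicates 1 and 3 (1.15, adjusted p = 0.00298) and when all genes counted at least once were kept (0.62, adjusted p = 0.0281). Control replicates 1 and 3 held the most LCN2 of the controls, and their pairs had the smallest differences (0.25 and -0.15 on the log2 scale). Leaving them out therefore enlarges the fitted change, so the fits without them are no support for a rise.

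The sequence before the RefSeq start is shown for the marker with the largest rise, for that with the largest fall and for LCN2, whose window held the most motif matches. Starts were listed for 7 of the markers, and 250 bases before each were searched on both strands for 6 motifs. Annotated exons of the gene were trimmed from the printed windows, which are GRCh38.p14, 5′ to 3′ on the strand of the gene, with motif matches in capitals.
HAVCR1 (chr5:157059120-157059366, minus strand): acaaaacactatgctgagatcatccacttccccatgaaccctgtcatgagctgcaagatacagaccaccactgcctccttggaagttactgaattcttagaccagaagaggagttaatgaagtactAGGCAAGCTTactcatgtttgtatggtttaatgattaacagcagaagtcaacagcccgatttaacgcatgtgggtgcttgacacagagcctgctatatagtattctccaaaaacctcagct
CD24 (chr6:106975628-106975877, minus strand): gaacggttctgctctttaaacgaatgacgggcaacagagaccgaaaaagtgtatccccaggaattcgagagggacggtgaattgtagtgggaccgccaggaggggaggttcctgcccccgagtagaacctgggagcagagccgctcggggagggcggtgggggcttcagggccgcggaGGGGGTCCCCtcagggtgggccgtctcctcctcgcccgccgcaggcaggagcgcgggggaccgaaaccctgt
LCN2 (chr9:128149265-128149440, plus strand): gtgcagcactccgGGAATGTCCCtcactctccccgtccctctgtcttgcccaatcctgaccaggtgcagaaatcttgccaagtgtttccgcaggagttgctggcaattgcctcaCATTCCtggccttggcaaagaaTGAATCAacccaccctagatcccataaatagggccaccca

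The HAVCR1 window held a match to the p53 half-site consensus, found before 5.57% of all 35116 listed starts, and the CD24 window held a match to the NF-κB consensus, found before 5.21%. In LCN2 the first capitals are a match to the NF-κB consensus that overlaps one to the TEAD motif GGAATG, followed by a second TEAD match on the other strand and by a match to the AP-1 motif TGANTCA. The TEAD motif was present before 11.9% and the AP-1 motif before 6.57% of listed starts. The STAT motif TTCNNNGAA (6.57%) and the TATA box TATAAA (10.7%) were not matched in these windows. ANXA1 held a TATA box and a p53 half-site match, PROM1 an AP-1 match before 1 of its 4 starts, and SPP1 and DCDC2 held no match to the 6 motifs. The CD24 window is that of the outermost of 3 listed starts, and the window of the innermost held a TEAD match. The matches are descriptions of letters in these windows and were not related to the expression values.

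CLU lies on chromosome 8 (chr8:27596917-27614700, minus strand). Control replicates 1 to 5 held 280.2, 311.8, 318.7, 223.8 and 309.3 CPM, and irradiated replicates 233.6, 401.9, 307.9, 201.7 and 257.8 CPM. Irradiated replicate 2 was the highest of the 10 samples, and the other 4 irradiated samples were each below their control. The log2 fold change was -0.07 (95% interval -0.29 to 0.14, edgeR adjusted p = 0.553), and without replicate 2 it was -0.17 (adjusted p = 0.0382), so that CLU passed as lower in that fit. DCDC2, on chromosome 6 (chr6:24171755-24358059, minus strand), held 620.8, 495.4, 664.6, 554.8 and 626.4 CPM in controls and 590.5, 505.2, 573.1, 570.0 and 574.8 CPM in irradiated samples. Its groups overlapped, with irradiated values inside the control range. The log2 fold change of -0.07 had a 95% interval from -0.20 to 0.06 (edgeR adjusted p = 0.335). Exons of KAAG1 on the opposite strand cover 12% of the exon length of DCDC2, and reads there are left out by unstranded counting, so its level can be too low.

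Levels of different genes were compared per kb of exon, which is the CPM divided by the merged exon length. In control samples CD24 was the highest marker at 1487 ± 267.9 CPM per kb (SD, n = 5), in place 14 among 13736 protein-coding genes tested. SPP1 followed at 371.2 ± 77.7, DCDC2 at 118.4 ± 13.4, ANXA1 at 68.6 ± 7.15, PROM1 at 51.5 ± 6.51 and CLU at 45.9 ± 6.23 CPM per kb (SD, n = 5 each). HAVCR1 at 5.48 ± 1.54 and LCN2 at 0.27 ± 0.171 CPM per kb (SD, n = 5 each) came last. The sample ranges of neighbours in this order did not overlap, except for PROM1 and CLU. In irradiated samples CD24 was still the highest marker, at 808.8 ± 65.0 CPM per kb, and SPP1 the next, at 501.6 ± 96.8 (SD, n = 5 each). The ranges of DCDC2 (112.5 CPM per kb) and ANXA1 (101.6) then overlapped, as did those of CLU (44.6) and PROM1 (37.8). HAVCR1 moved from place 5971 to place 2011 of the 13736 genes in level per kb, to 18.8 ± 4.97 (SD, n = 5), and stayed below the other markers except LCN2. With the longest transcript in place of the merged exons, ANXA1 came before DCDC2 in both groups and CLU before PROM1 in controls.

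**Figure D3:**
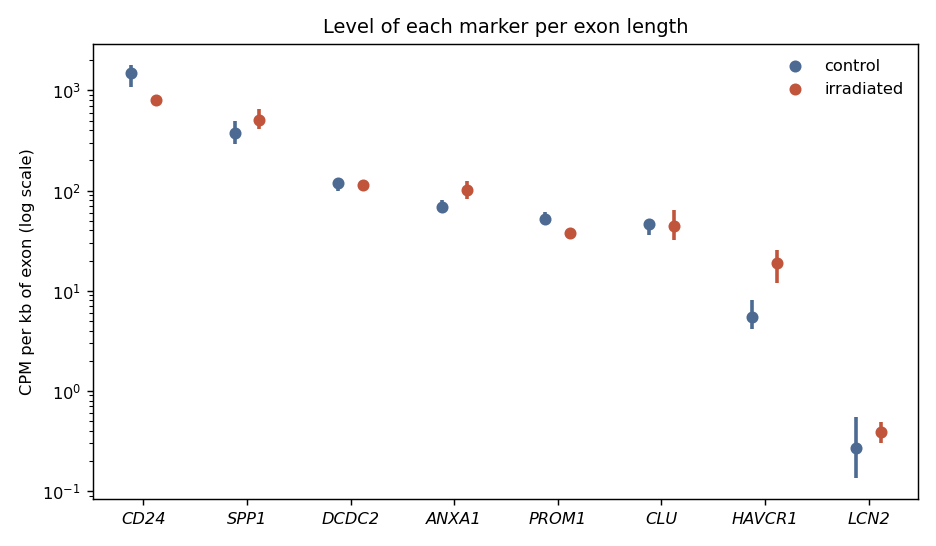
Level of each marker in CPM per kb of merged exon (vertical axis, log scale) in control (blue) and irradiated (red) samples, as the mean of 5 samples (point) with the lowest to highest sample (line). The order from CD24 to LCN2 spans 1487 to 0.27 CPM per kb in controls, and HAVCR1 moves from 5.48 to 18.8.

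Control samples differed from each other in cell cycle gene expression. Beside 22.7% of all genes tested, 14 of 15 cell cycle genes were lower after irradiation by edgeR. On the log2 CPM scale their mean was 4.04 and 3.93 for control replicates 1 and 3, against 5.34, 5.43 and 5.33 for the other controls, with irradiated samples between 2.72 and 3.31. MKI67, a marker of dividing cells, showed the same split, at 76.7 and 60.4 CPM against 216.7 to 233.9 CPM. CDKN1A, which encodes the cell cycle inhibitor p21, was at 207.6 CPM in control replicate 3 and between 66.7 and 80.9 CPM in the other controls. LCN2 was higher in control replicates 1 and 3 (0.514 and 0.867 CPM) than in the other controls (0.215 to 0.336), and so was CD24 (4917 and 5593 CPM against 3351 to 4803). For the other 6 markers, HAVCR1 included, these controls overlapped the rest. The relation was not tested, since the split was seen in the outcome. With replicates 1 and 3 left out, HAVCR1, ANXA1, SPP1, CD24 and PROM1 kept their calls, with log2 fold changes of 1.60, 0.48, 0.29, -0.82 and -0.41.

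Of 5 further genes listed for injured or dedifferentiated tubule cells, 4 rose and 0 fell. VCAM1, an adhesion molecule of injured proximal tubule cells and also of endothelium, held 0.183, 0.372, 0.269, 0.353 and 0.235 CPM in controls and 2.76, 2.08, 1.33, 2.53 and 2.83 CPM in irradiated samples. Every irradiated sample was above every control at a level that remained low. Its log2 fold change was 2.98 (standard error 0.24, edgeR adjusted p = 7.52e-05). ITGB8, an integrin subunit that activates latent TGF-β, rose from 301.0 ± 39.9 to 747.1 ± 106.7 CPM and TPM1, an actin-binding tropomyosin, from 981.2 ± 156.2 to 1597 ± 201.2 CPM (SD, n = 5 each). Genes of the opposite strand overlap 22.7% of the exons of TPM1 by length and 24.6% of those of VIM. VIM, the intermediate filament vimentin, had a log2 fold change of 0.25 (edgeR adjusted p = 0.0389) that did not pass without replicate 1, 3 or 5 (adjusted p of 0.126, 0.0618 and 0.0526), with library size alone (0.106) or without the block (0.0865). With replicates 1 and 3 left out it was 0.08 (adjusted p = 0.208). ITGB6, the subunit of another TGF-β activating integrin, was at 586.3 ± 96.9 and 514.6 ± 54.4 CPM (SD, n = 5 each) and did not pass (log2 fold change -0.18, adjusted p = 0.276). Pair 3 differed by -0.81 and the other pairs by -0.13 to 0.08, and leaving replicate 3 out gave -0.02 (adjusted p = 0.805).

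Among 11 other genes of proteins measured in urine as signs of tubule damage, 8 were tested, 3 rose, 0 fell and 5 did not pass. IL18, an inflammatory cytokine, rose from 34.8 ± 4.93 to 78.7 ± 9.10 CPM, and CST3, the protease inhibitor cystatin C, from 259.6 ± 37.7 to 442.0 ± 61.8 CPM (SD, n = 5 each), with log2 fold changes of 1.18 and 0.77 (edgeR adjusted p = 9.39e-05 and 2.78e-05). TIMP2, a metalloproteinase inhibitor used in urine together with IGFBP7, had a log2 fold change of 0.31 (adjusted p = 0.0257) that did not pass without replicate 1, 4 or 5 (0.0899, 0.0905 and 0.0711), with library size alone (0.059) or without the block (0.115). FABP1 had 0 counts, and CHI3L1 and MIF were also under 200 counts. For MIF, opposite-strand genes overlap 94.1% of the exon length, so little of its RNA could be counted.

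Receptors and binding partners of the marker proteins were listed as 20 genes, of which 13 were tested, 8 rose, 2 fell and 3 did not pass. SELP, which encodes P-selectin, a binding partner of CD24 that is itself an endothelial and platelet gene, rose from 0.417 ± 0.223 to 12.2 ± 5.19 CPM (SD, n = 5 each, log2 fold change 4.79, edgeR adjusted p = 7.46e-05). CD44, a receptor for osteopontin, rose from 513.0 ± 75.4 to 920.1 ± 115.1 CPM (SD, n = 5 each, log2 fold change 0.85, adjusted p = 5.97e-04). FPR1, a receptor for annexin A1, and TIMD4, a ligand of KIM-1, stayed low, at 0.799 and 1.41 CPM in irradiated against 0.358 and 0.749 CPM in control samples, with log2 fold changes of 1.14 and 0.87 (adjusted p = 0.00461 and 0.00167). LRP2, the endocytic receptor megalin, had 1 count in controls and 16 in irradiated samples. SIGLEC10, the inhibitory receptor for CD24, had 39 and 12, and both genes were under 200 counts and not tested.

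Of 8 genes listed for cleavage of the marker proteins, 5 were tested, 3 rose, 1 fell and 1 did not pass. THBD, which encodes the thrombin receptor thrombomodulin, rose from 0.675 ± 0.318 to 3.54 ± 1.12 CPM and the membrane protease MMP14 from 278.1 ± 51.9 to 525.6 ± 49.1 CPM (SD, n = 5 each), with log2 fold changes of 2.44 and 0.93 (edgeR adjusted p = 2.99e-04 and 5.27e-05). MMP7, which cleaves osteopontin, had a log2 fold change of 0.33 (adjusted p = 0.0133, and 0.147 without the replicate block). ADAM17, a sheddase of surface proteins, had one of -0.24 (adjusted p = 0.034), which did not pass without replicate 1, 4 or 5 (-0.26, -0.26 and -0.25, adjusted p of 0.063, 0.0632 and 0.0798). Leaving replicate 3 out gave -0.14 (adjusted p = 0.0149).

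Relatives of the markers numbered 30, of which 18 were tested, 9 rose, 3 fell and 6 did not pass. DCLK1, a kinase with doublecortin domains like those of DCDC2, rose from 0.640 ± 0.246 to 11.5 ± 2.26 CPM (SD, n = 5 each), whereas DCDC2 itself did not pass. The log2 fold change of DCLK1 was 4.16 (standard error 0.29, edgeR adjusted p = 4.63e-05). HAVCR2, which encodes the receptor TIM-3 of the KIM-1 family, went from 0.389 ± 0.0554 to 1.05 ± 0.147 CPM (SD, n = 5 each, log2 fold change 1.44, adjusted p = 1.12e-04). Of 9 annexins tested besides ANXA1, 4 rose, 2 fell and 3 did not pass. ANXA13 was the annexin with the largest rise (log2 fold change 1.41, adjusted p = 6.46e-04, at 1.23 CPM after irradiation), and ANXA6 fell by 0.93 on the log2 scale (adjusted p = 2.01e-04). Over these lists together, 55.1% of 49 genes tested rose and 12.2% fell, beside 23.9% and 22.7% of all genes. The lists were chosen with earlier results of these data known, so this difference is a description and not a test. The genes that fell numbered 6, but 3 without replicate 1, 4 or 5 and 9 with library size alone.

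**Figure D4:**
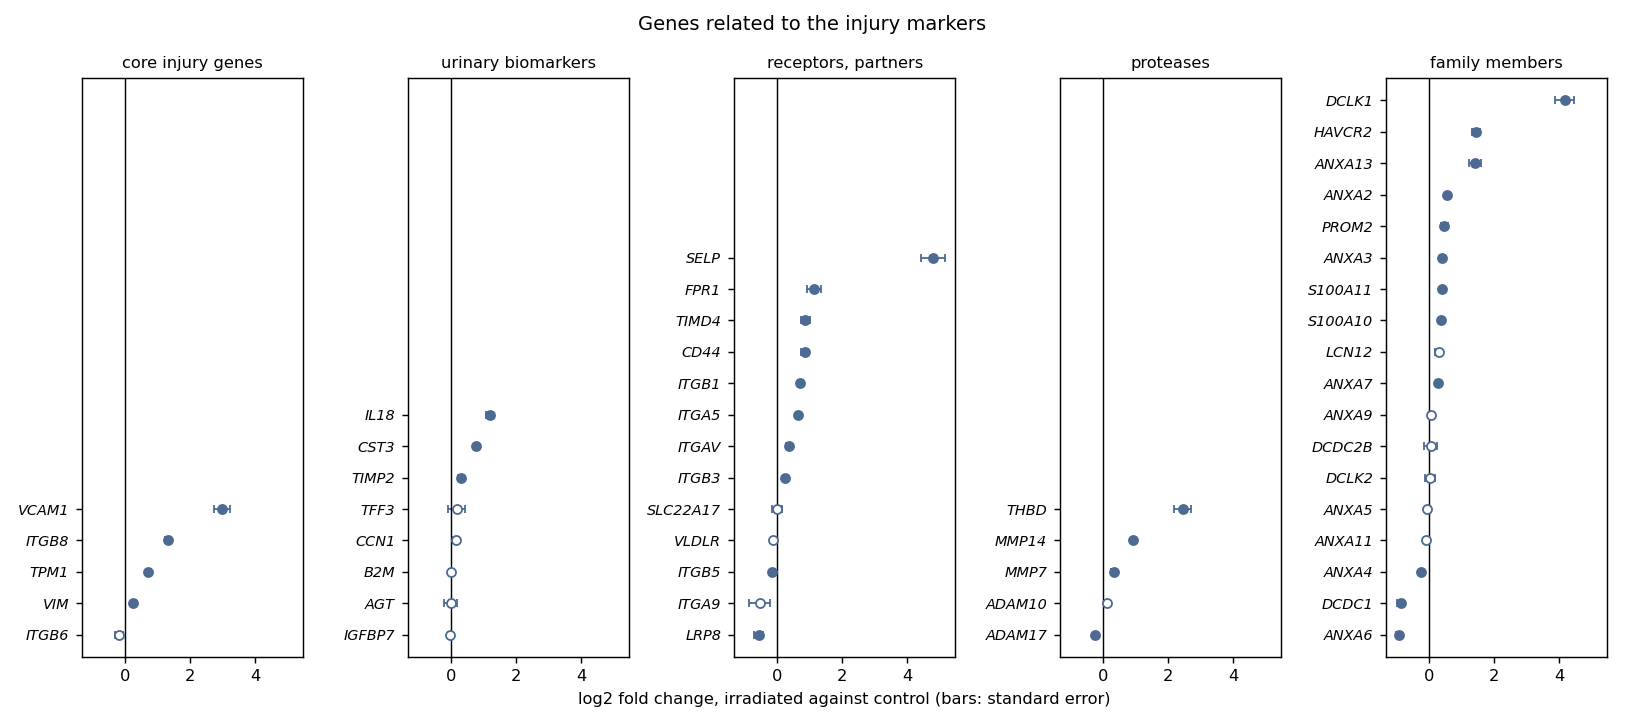
Log2 fold change of irradiated against control samples (horizontal axis) with its standard error for the tested genes of the related lists, filled where the adjusted p-value was under 0.05. SELP at 4.79 and DCLK1 at 4.16 lie farthest to the right, and ANXA6 at -0.93 farthest to the left.

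Genes with the most similar course over the 10 samples were sought by the root mean square difference between log2 CPM profiles, each centred on its own mean, among 12841 genes averaging at least 1 log2 CPM. Nearest to HAVCR1 were RP1 (0.226), PLXNB3 (0.233) and EPHA10 (0.243), all less abundant and with log2 fold changes of 2.14, 1.91 and 1.97. Nearest to CD24 were PEX11A (0.123), TPRN (0.124) and L1CAM (0.125), the last of these a cell adhesion molecule that went from 1474 to 856.7 CPM. For PROM1 they were MYLK (0.070), DHX40 (0.071) and ATP11A (0.073), and for ANXA1 they were QSOX1 (0.055), OCIAD2 (0.076) and DDA1 (0.076). SPP1 lay nearest to AVPI1 (0.121) and to the mitochondrial genes MT-ND4L (0.122) and MT-CYB (0.135). DCDC2 was nearest to SLC9B2 (0.050), EXOC4 (0.050) and LINC01111 (0.055), and CLU to FAM27E3 (0.132), GRTP1 (0.166) and ATP6AP1 (0.166). LCN2 was below the level set for this search. Among the markers themselves, SPP1 and ANXA1 were the closest pair (0.195), before DCDC2 and PROM1 (0.231).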

How the data were processed

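The authors trimmed adapters, aligned reads to GRCh38 with STAR, counted them per gene during alignment and deposited whole-number counts per gene and sample without normalisation. The methods name an NEBNext and the labels a TruSeq library kit. Of 61587 rows, 61369 matched GENCODE v44, which gave coordinates and exon lengths. All 17 protein-coding genes covered entirely by opposite-strand exons were at 0, as were 9.29% of 10506 without any overlap, so counts were treated as unstranded. Every column was used.

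The main test was that of edgeR 4.0.16 (TMM, glmQLFit, glmQLFTest; R 4.3.3) on genes with at least 200 counts, with replicate number as a block. The study itself used DESeq2. The count limit and the replicate term follow its methods. Alternatives used DESeq2 1.42.0, limma 3.58.1, other scaling and filters, no block, and samples left out. Samples of equal replicate number share a B number in the names of the count columns and were paired on that basis. Correlations of deviations from group means were 0.22 to 0.51 for equal numbers and -0.35 to 0.32 otherwise. These ranges overlap, so the correlations do not establish the pairing. Log2 CPM used a prior count of 2. Intervals of 95% came from the standard error. Counts of any pair of replicates differed beyond sampling noise. The rule for named genes took the markers, the 5 further injury genes, and from each other list up to 4 with the largest change among those that passed, besides the 3 nearest profiles of each marker. Cell cycle genes are given by their mean with MKI67 and CDKN1A. Genes that did not pass or were under 200 counts are named to complete a list, as are KRT8, PAX8, ANPEP, MME and CUBN for their level. Members and lists were chosen with earlier results of these data known.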

Additional observations from a re-analysis of the deposited data

Results flagged for a closer look

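A sample was singled out where its gap to the nearest sample of its group, divided by the range of the group, passed Dixon's value of 0.71 for 5 samples. Of 32 groups so examined, 5 had such a sample, and about 1 in 20 (1.6) would by chance. Irradiated replicate 2 was low for DCDC2, at 505.2 CPM where the other irradiated samples lay between 570.0 and 590.5. It was also low for VIM at 363.8 CPM (others 432.9 to 457.4) and for TPM1 at 1247 CPM (others 1624 to 1729). That sample had the fewest counts on genes of all samples (66.3 M), and the part of depth in these values was not tested. Irradiated replicate 3 was low for ITGB6, at 421.1 CPM (others 524.1 to 562.3), and its log2 fold change went from -0.18 to -0.02 without replicate 3. Control replicate 3 was high for CDKN1A, at 207.6 CPM (others 66.7 to 80.9). Among the markers, DCDC2 was the gene so singled out. Its log2 fold change was -0.08 without replicate 2.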

How the results depend on the processing

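The calls of HAVCR1, ANXA1, CD24, PROM1 and DCDC2 were the same under all 13 alternatives, with log2 fold changes of 1.60 to 1.86, 0.48 to 0.61, -0.96 to -0.81, -0.52 to -0.40 and -0.14 to -0.03. LCN2 passed when all genes counted at least once were kept (0.62), without replicate 3 (0.92) and with replicates 1 and 3 left out (1.15). These replicates held the highest LCN2 controls, so leaving them out enlarges its fitted change. LCN2 ran from 0.51 to 0.92 with a single replicate left out. CLU ran from -0.17 to -0.02 and SPP1 from 0.33 to 0.50 with a replicate left out, and CLU passed as lower without replicate 2 (-0.17). Without the replicate block SPP1 did not pass (0.43), and no other marker changed its call in that fit. The number of markers higher lay between 2 and 4 and of those lower between 2 and 3. Of the related genes, 6 fell, 3 to 6 with a replicate left out (3 without replicate 1, 4 or 5) and 9 with library size alone. The genes changed numbered 8857, of which 51.4% rose. With library size alone they were 9503, of which 38.0% rose. FAM27E3 changed sign with library size alone (-0.01) and without replicate 2 (-0.02), with a range of -0.02 to 0.16 with a replicate left out, and SLC9B2 without replicate 3 (0.01, range -0.05 to 0.01). The causes were not tested. LCN2 had 24 to 87 counts per sample, fewer than any other marker, and a filter of 1000 counts left it out.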
